A study of Mus musculus with 4 samples.

Results

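CHD4 signal was called above IgG at 225 genomic intervals that carry the name of an uncharacterised or non-coding transcript, out of 1849 intervals in all. They were chosen by symbol alone: predicted genes (Gm and a number), microRNAs (Mir and a number), small nucleolar RNAs (Snor), pluripotency associated transcripts (Platr) and RIKEN cDNA clones (names ending in Rik). D230017M19Rik was left out, and rows with the same chromosome, start and end were joined, so that the 225 intervals hold 261 summits and name 178 transcripts. The remaining 1624 intervals are called other intervals below.

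The intervals come from CUT&Tag of cells from wild-type C57BL/6 mice, labelled spermatogonial and prepared by digesting testes to single cells. An antibody against CHD4 was used in 2 samples and a non-specific IgG in 2, each pair described as biological replicates, with no other agent or allele. The deposited table is a single list of CHD4 over IgG with no value for any sample. No error between replicates can therefore be given for any value here, and the labelled cell type could not be checked by markers, since the files hold no expression. No step that would part spermatogonial cells from the rest of the testis is described in the sources used here.

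CHD4 is the motor subunit of NuRD, a chromatin remodelling complex that moves nucleosomes and removes acetyl groups from histones at promoters and enhancers. In CUT&Tag a transposase is brought to the antibody and tags the DNA beside it. Long non-coding RNAs are transcripts of gene length without a known protein product, many of them found in testis. MicroRNAs are cut from short hairpins and repress messenger RNAs that pair with their seed, and small nucleolar RNAs guide the processing and modification of ribosomal RNA. The names Gm and Rik record only how a transcript was found, by gene prediction or by cDNA cloning, so such a symbol can also stand for a protein-coding gene.

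The microRNAs whose own hairpin gene lay wholly or partly under a CHD4 interval are shown by their mature sequences, with the seed in capitals. They are RefSeq sequences of build GRCm38.p6, written 5′ to 3′. The mature sequence of Mir7668 starts at position 29906546 of chromosome 7, outside its interval, which ends at 29906522. Of the 30 microRNA genes named, 28 had sequence in the table used here, with 38 mature sequences and 38 distinct seeds. No seed was shared between genes, so they do not form a family by target pairing.
mmu-miR-6546-3p: gAGCGAAGcccaagcgccaga
mmu-miR-6546-5p: aGGCGCCUcugagcuugugcuugu
mmu-miR-7671-3p: aAGCGGGCaggcggagaaccac
mmu-miR-7671-5p: aGGCUCCGcucuggcuagcuucc
mmu-miR-3092-3p: gAAUGGGGcuguuuccccucc
mmu-miR-3092-5p: aGGGGAAAaugccuuucuccca
mmu-miR-8120: uGUGCCUUgcaacuuccgagcc
mmu-miR-7668-3p: cGGUGCAGgggauucagaggag
mmu-miR-3109-5p: aAUGGAUGcgaugguucccaugcu
mmu-miR-3109-3p: uAGGGCCAucucauccagaua

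The promoters of highest fold among the 53 intervals within 1 kb of the named start are shown as windows around the RefSeq start, on the strand of the transcript (RefSeq, GRCm38.p6). Capitals mark matches, on either strand, to the patterns searched: the NF-Y box CCAAT, the Sp1 core GGGCGG, the TATA box TATAAA, the E-box CACGTG, the AP-1 site TGANTCA, the cAMP response core TGACG, and the sequence GGTTCGA of transfer RNA promoters. None of these patterns contains another. The windows are chr15:98985715-98986014 (plus strand) for 4930578M01Rik, chr17:17294193-17294442 (plus) for Gm6712, chr14:76520806-76521105 (minus) for 4930444M15Rik, chr16:91464854-91465153 (plus) for A930006K02Rik and chr2:152654281-152654580 (minus) for 1700030C14Rik. For Gm6712, which the gene table lists as protein-coding, only the bases before the start are printed.
4930578M01Rik: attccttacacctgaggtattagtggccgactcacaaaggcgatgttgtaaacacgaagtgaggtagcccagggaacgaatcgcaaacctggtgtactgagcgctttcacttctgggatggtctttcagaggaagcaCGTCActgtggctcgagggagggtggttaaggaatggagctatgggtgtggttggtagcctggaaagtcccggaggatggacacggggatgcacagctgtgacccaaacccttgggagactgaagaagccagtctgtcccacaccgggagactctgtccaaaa
Gm6712: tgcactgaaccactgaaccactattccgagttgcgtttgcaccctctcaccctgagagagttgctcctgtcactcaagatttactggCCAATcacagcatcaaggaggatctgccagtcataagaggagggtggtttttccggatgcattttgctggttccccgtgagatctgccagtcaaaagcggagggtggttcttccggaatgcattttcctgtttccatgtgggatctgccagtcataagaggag
4930444M15Rik: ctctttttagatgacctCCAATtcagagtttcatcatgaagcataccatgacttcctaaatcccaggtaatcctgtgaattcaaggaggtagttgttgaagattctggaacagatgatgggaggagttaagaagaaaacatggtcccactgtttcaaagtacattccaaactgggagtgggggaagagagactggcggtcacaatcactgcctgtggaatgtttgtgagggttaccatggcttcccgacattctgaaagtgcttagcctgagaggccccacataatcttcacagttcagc
A930006K02Rik: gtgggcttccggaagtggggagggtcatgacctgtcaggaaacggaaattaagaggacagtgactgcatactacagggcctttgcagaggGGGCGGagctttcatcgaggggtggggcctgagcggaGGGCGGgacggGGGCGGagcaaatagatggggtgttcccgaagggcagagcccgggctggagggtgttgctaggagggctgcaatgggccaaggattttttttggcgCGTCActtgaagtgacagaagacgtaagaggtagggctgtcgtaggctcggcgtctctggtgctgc
1700030C14Rik: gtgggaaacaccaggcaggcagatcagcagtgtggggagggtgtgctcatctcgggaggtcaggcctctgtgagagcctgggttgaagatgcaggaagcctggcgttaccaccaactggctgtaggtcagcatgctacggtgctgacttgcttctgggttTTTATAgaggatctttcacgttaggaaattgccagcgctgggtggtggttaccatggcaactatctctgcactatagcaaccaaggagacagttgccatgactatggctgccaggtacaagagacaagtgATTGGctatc

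These windows differ in kind. A930006K02Rik held 3 GGGCGG boxes and 1 TGACG, with 16 CpG dinucleotides and a ratio of observed to expected CpG of 0.693. At 4930444M15Rik there were 2 CpG, a ratio of 0.131 and 1 CCAAT match. Both TATAAA and CCAAT matched in 1700030C14Rik, each on the opposite strand, and its CpG ratio was 0.244. The Gm6712 stretch repeats 23 bases exactly, in 2 copies with a near copy between them, and its CCAAT match lies outside the repeat. The second exact copy ends at the last base printed, so the full length of the repeat is not shown. No match here marks a bound factor.

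The intervals of uncharacterised and non-coding transcripts lay farther from the transcript starts they were named for than the other intervals did. By the authors' annotation, which names the transcript with the nearest start, 53 of the 225 lay within 1 kb of it, or 23.6% (exact 95% binomial interval 18.2 to 29.7). The share was 35.6% among the other intervals (33.3 to 38) and 34.1% among all. The start itself lay inside 27 of the 225, or 12% (8.06 to 17.0), against 16.2% of the other intervals, with 15.7% among all. These intervals cover counting error only. No test was made between the sets, because intervals are not replicates and neighbouring ones are not independent.

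The median distance was 13.7 kb, with quartiles of 1.7 and 38.6 kb, against 4.97 kb among the other intervals, with quartiles of 0.125 and 21.8 kb. Distances over 10 kb were found for 130 of the 225 (57.8%), against 39.0% of the other intervals, and distances over 100 kb for 24 (10.7%), against 5.23%. Distal intergenic sequence held 99 of them (44%), against 358 of the other intervals (22%). Introns held 45 (20%), against 448 (27.6%). Exons held 11, the zones from 1 to 2 kb and from 2 to 3 kb held 6 each, the downstream class 3 and the 3′ untranslated class 2. Upstream of the named start lay 89 intervals and downstream of it 109.

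**Figure D1:**
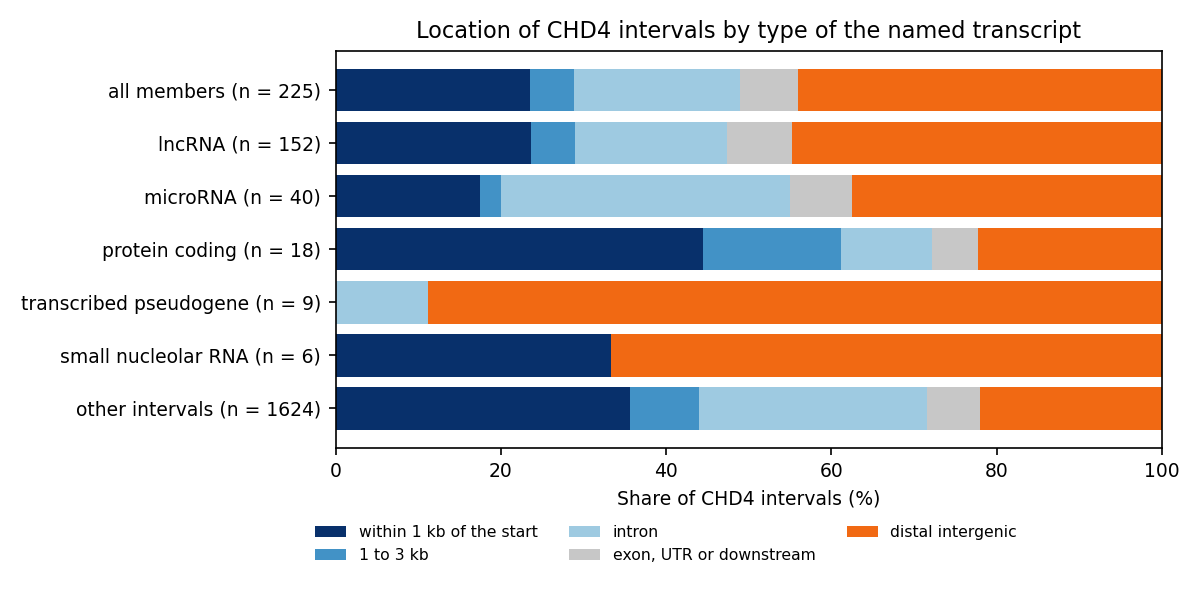
Share of CHD4 intervals (%, horizontal) in each location class of the authors' annotation, for the 225 intervals of uncharacterised and non-coding transcripts, for each gene type among them, and for the 1624 other intervals. Distal intergenic sequence takes 44% of the 225 and 22% of the other intervals, and the 9 pseudogene intervals have none within 1 kb.

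A name by nearest start does not say that the interval lies on the transcript. Of the 225 intervals, 59 overlapped the gene they were named for, or 26.2% (20.6 to 32.5), against 58.2% of the other intervals (55.7 to 60.6) and 54.3% of all. A short gene is less readily overlapped, and microRNA genes among those named were as short as 58 bp (Mir7671). The part of gene length in this contrast was not tested. A further 63 (28%) lay off the named gene and on another one, which was protein-coding for 30 of them. No gene of the RefSeq table lay under 103 (45.8%), against 28.3% of the other intervals. Both the named gene and another gene lay under 18.

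CHD4 over IgG, the authors' fold, was 5.0 at the median of the 225 (exact 95% interval of the median 4.80 to 5.20). Its quartiles were 4.36 and 6.05, with 2.4 as the lowest value and 10.97 as the highest. The median of the other intervals was 4.72 (4.59 to 4.79), with a range from 1.75 to 13.6. Above the median fold of the whole list lay 133 of the 225, or 59.1%, against 50% of all intervals by construction. Among the 10 highest folds of the list 2 were theirs, among the 50 highest 9, and among the 100 highest 17, where they make up 12.2% of all intervals. Ranked by −log10 q in place of fold, none of the 10 highest was theirs, with 7 of the 50 highest and 12 of the 100 highest.

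Fold went with location. The 53 intervals within 1 kb had a median fold of 4.67 (4.14 to 5.11), and the 172 beyond 1 kb had 5.14 (4.91 to 5.29). Among the other intervals the medians were 4.31 within 1 kb (4.15 to 4.36) and 4.95 beyond (4.88 to 5.05). Within each zone the 225 had the higher median, and the exact intervals of the medians overlap. Such overlap is not a test of a difference, and the difference in fold within a zone was not tested.

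**Figure D2:**
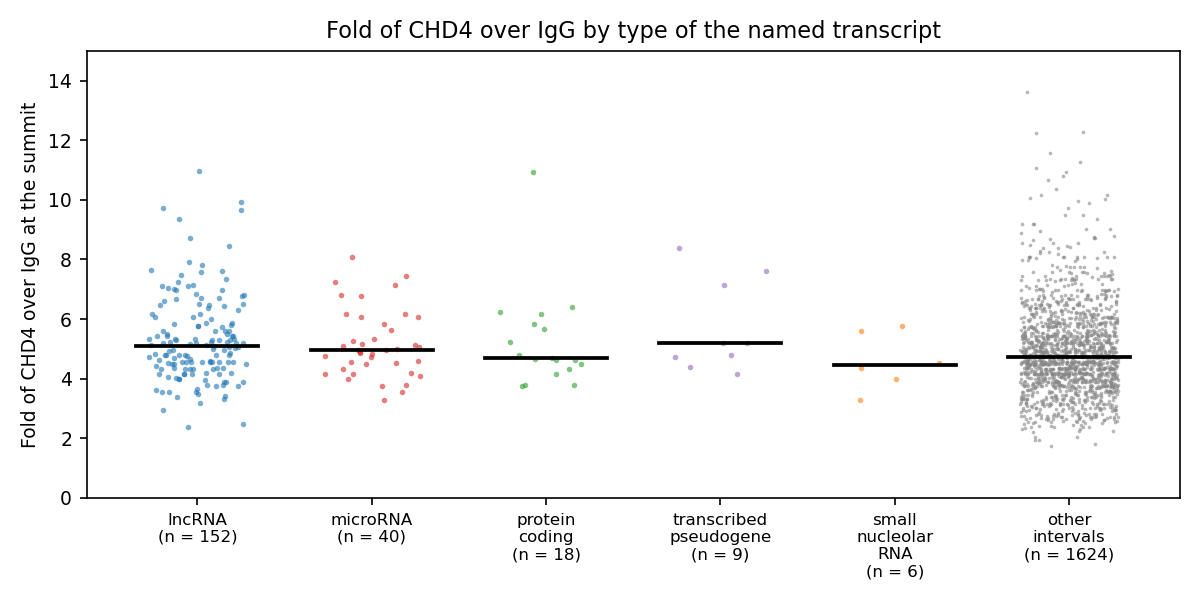
Fold of CHD4 over IgG (vertical) of each interval by the gene type of its named transcript, with the 1624 other intervals on the right; bars are medians. The medians run from 4.45 (small nucleolar RNA) to 5.20 (transcribed pseudogene), against 4.72 in the other intervals, and the ranges overlap throughout.

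The depth behind these folds was low. Fragment numbers were recovered from the authors' fold and −log10 p. At the median interval of the 225 the summit had 26 CHD4 fragments where IgG gave an expectation of 1. The quartiles of CHD4 fragments were 19 and 35, and the range was 12 to 115. The other intervals had 27 fragments, with quartiles of 20 and 41, over a median expectation of 1.48. Fewer than 20 fragments supported 69 of the 225 (30.7%), against 24.9% of the other intervals. The lowest expectation of the list, 0.346, was found at 22 of the 225 (9.78%), against 6.59%. At those 22 the fold is set by CHD4 fragments and by that lowest value.

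Within 1 kb the 53 intervals had a median of 31 CHD4 fragments over an IgG expectation of 2, and the 172 beyond 1 kb had 23 over 1. The promoter intervals thus had more CHD4 fragments and a lower fold, beside a higher IgG expectation. The part of open chromatin, which the transposase cuts more readily, in either value was not tested. Interval widths were alike, with a median of 285 bp (range 185 to 1269) against 279 bp.

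**Figure D3:**
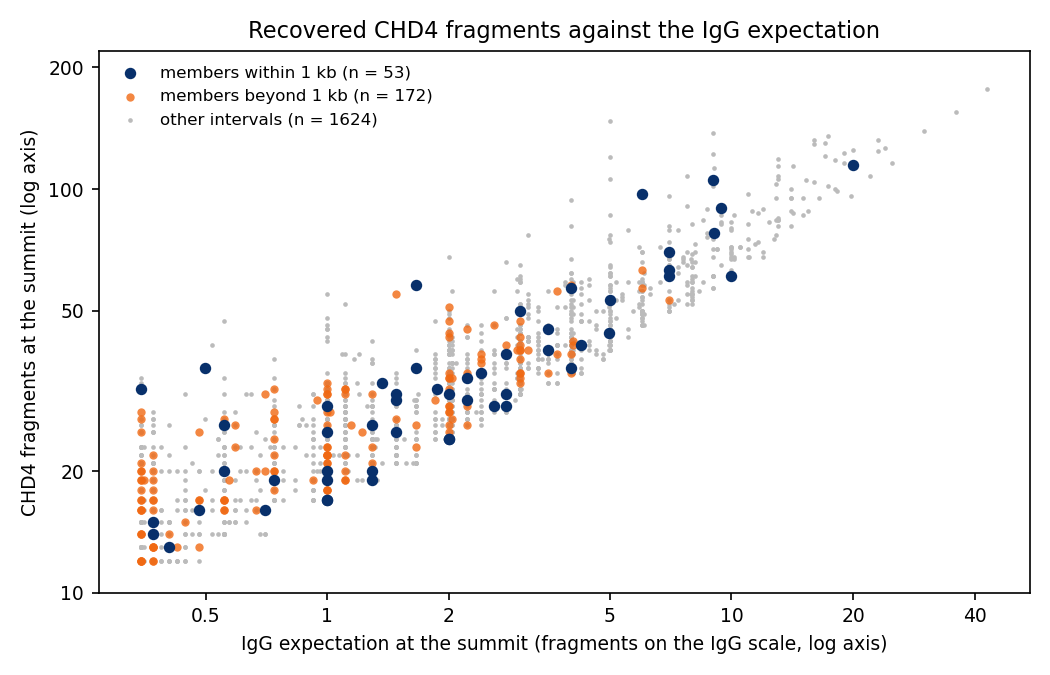
CHD4 fragments at the summit against the IgG expectation (both on log axes), for intervals of uncharacterised and non-coding transcripts within 1 kb of the start, those beyond 1 kb, and the other intervals. The lower edge rises with the expectation, since a peak over more IgG needs more fragments to be called; Mir22hg is the point at 115 fragments over 20.

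The strongest interval of an uncharacterised transcript lay over the start of 4930578M01Rik (gene 75951), a long non-coding RNA, at chr15:98985513-98985967. Its fold was 10.97, the seventh highest of the list, and its 36 CHD4 fragments stood over 0.498 expected from IgG. Gm6712 (gene 100862203) followed with 10.94 at chr17:17294001-17294440, from 32 fragments over 0.346, ending 0.003 kb before its start. The third promoter, that of 4930444M15Rik (gene 75789, chr14:76520671-76520892), had a fold of 9.72 from 58 fragments over 1.66. It therefore rests on more fragments than the stronger promoters, and its −log10 q of 14.6 was above their 12.7 and 12. Next among promoters were A930006K02Rik at 7.82 (26 fragments over 0.554) and 1700030C14Rik at 6.72 (29 fragments over 1).

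The rest of the 10 highest folds lay away from the named starts. Gm3716, a long non-coding RNA, had a fold of 9.92 at 22.9 kb (chr5:64579744-64580278), from 55 fragments over 1.48. 1700061I17Rik had 9.66 at 62.0 kb and 7630403G23Rik had 9.34 at 49.2 kb, from 28 and 27 fragments over the lowest expectation. None of these overlapped a gene of the table. The lower folds among these 10 were 2700054A10Rik at 8.71, 2310008N11Rik at 8.47, the Gapdh pseudogene Gm5069 at 8.40 and Mir496b at 8.09. The Mir496b interval lay 51.3 kb from the hairpin, inside Gnaq, which encodes a G protein alpha subunit.

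By −log10 q the leading interval was that of Mir6546, with 15.1, which placed it thirteenth in the list. It held 97 CHD4 fragments over an expectation of 6, and its fold was 6.08. 4930444M15Rik, Gm3716 and 4930578M01Rik followed with 14.6, 14.5 and 12.7, and Mir3109 with 12.1 from 105 fragments over 9. The lowest folds stood over IgG expectations from 4 to 20, where the median of the 225 was 1. Mir6546 had a higher fold over 6, and the part of the expectation in these low folds was not tested. Mir22hg, the host gene of miR-22, had a fold of 2.4 at its start from 115 fragments, the most of the 225, over an expectation of 20. 4930583K01Rik had 2.47 from 61 fragments over 10, 4930488B22Rik 2.97 from 53 over 7, Gm4285 3.20 from 35 over 4, and Mir763 and Snord13 3.29 each from 36 over 4.

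**Figure D4:**
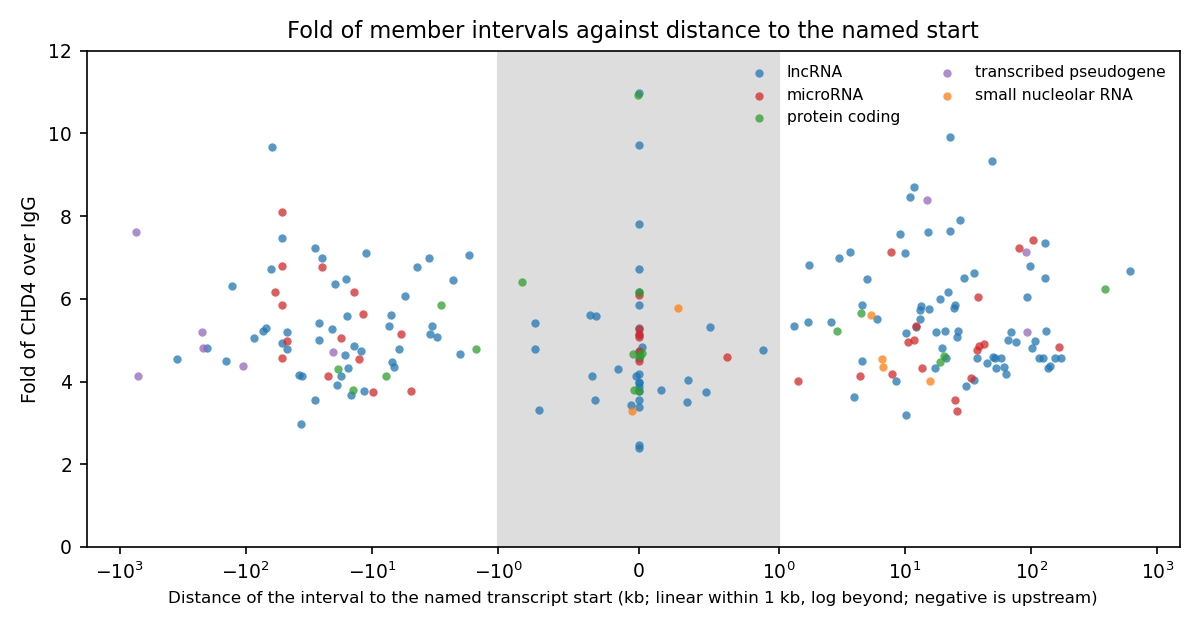
Fold of CHD4 over IgG against the signed distance in kb to the named start (linear within 1 kb, the shaded band, and logarithmic beyond), for the 225 intervals by gene type. Folds over 9 occur over starts (4930578M01Rik and 4930444M15Rik), 0.003 kb before a start (Gm6712) and over 20 kb away (Gm3716, 1700061I17Rik and 7630403G23Rik).

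By the wording of their gene names, 97 transcripts with 120 intervals were RIKEN cDNAs, 38 with 48 intervals were predicted genes, and 30 with 40 intervals were microRNAs. Named pseudogenes made up 7 transcripts with 9 intervals, small nucleolar RNAs 4 with 6, and Mir22hg and Platr30 had 1 interval each. The share within 1 kb was 26.7% for RIKEN cDNAs (32 intervals), 22.9% for predicted genes (11) and 17.5% for microRNAs (7). Their median folds were 5.13, 4.73 and 4.97. By gene type, 152 intervals were named for 120 long non-coding RNAs, with 23.7% within 1 kb and a median fold of 5.10. A name of this kind did not always mean non-coding: 15 of the RIKEN cDNAs and 2 of the predicted genes were protein-coding in the gene table.

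RIKEN clone names open with a code for the source library, and those of 1700061I17Rik, 4921513I03Rik, 4930578M01Rik, 4931431B13Rik and 4933402C06Rik are known as codes of adult testis libraries, as are 2 further codes that no interval carried. This grouping was chosen after the data were seen. Of the 99 symbols ending in Rik, 37 carried a testis code (37.4%), against 1125 of 2297 symbols of the full clone form in the gene table (49.0%). Intervals named for testis clones numbered 44, with 22.7% within 1 kb and a median fold of 4.86. The 79 intervals of the remaining clones had 27.8% within 1 kb and a median of 5.22. Overlap with the named gene was found for 15.9% of testis-clone intervals and 39.2% of the remaining ones, and distal intergenic location for 56.8% and 34.2%. Intervals of both groups thus mostly lay outside the clones they were named for, those of testis clones more often.

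The 17 protein-coding transcripts had 18 intervals, of which 8 lay within 1 kb (44.4%, 21.5 to 69.2), with a median distance of 2.17 kb. The start lay inside the interval of 5730409E04Rik (fold 6.16, 20 fragments over 0.554) and of 9130401M01Rik (fold 3.76, 24 over 2). Those of Gm6712, 0610009B22Rik (fold 3.80, 90 fragments over 9.41), 5330417C22Rik (4.67), 2010109A12Rik (4.70) and 2700062C07Rik (4.62) came within 0.04 kb of the start without holding it. The pseudogenes lay at the other extreme. All 9 intervals were more than 10 kb away, at a median of 105 kb, and none overlapped the pseudogene. Gm5069, Gm6498 and Gm7788 are copies of Gapdh, the glycolytic enzyme, with folds of 8.40, 7.14 and 5.20 at 14.9, 91.1 and 93.4 kb. Gm13498, an Hsp90 pseudogene, had 4.80 and 5.20 at 219 and 222 kb, B230303A05Rik, a pseudogene of a U1 ribonucleoprotein, 4.14 and 7.62, the ribosomal protein L7 pseudogene 1700073E17Rik 4.72, and Gm8579 4.39.

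Most microRNA intervals did not lie on the hairpin. The microRNA gene lay under 6 of the 40 (15%, 5.71 to 29.8), and 16 (40%) overlapped a protein-coding gene, wholly or in part. The 6 were those of Mir6546 (chr1:171064359-171064756), Mir3092, Mir3109, Mir7671, Mir7668 and Mir8120. Mir6546 had the highest fold of them, 6.08, in an interval that also covers a glycine transfer RNA gene (n-TGtcc1) and part of Fcgr3, an antibody receptor gene. Reads from the hairpin and from the transfer RNA gene cannot be told apart within it. Mir3092, inside Fndc3b, had 5.26 from 19 fragments over 0.738, and Mir7671 had 5.09 from 57 over 4. Mir3109, inside Anxa2 (annexin A2), had 5.14 from 32 over 1.86. The interval of Mir7668 had 4.73 from 25 over 1.48, at the start of the zinc finger gene Zfp27, and that of Mir8120 had 4.5 from 45 over 3.51. The hairpin of Mir6546, Mir7671, Mir3092 and Mir3109 lay wholly inside the interval, and that of Mir7668 and Mir8120 in part.

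Of the microRNA intervals off the hairpin, those that overlapped a coding gene had folds up to 8.09. Mir466q, inside Tnik, had 7.43 at 103 kb, Mir6393, inside Tafa5, had 7.23 at 80.3 kb, and Mir7036b, inside the adducin gene Add1, had 7.14 at 7.72 kb. Mir3092 had another interval inside Fndc3b, of 5.15 at 5.91 kb. Mir5101 in Syne2 had 6.16, Mir1961 in Shroom3 4.91, Mir2139 in Klhdc7a 4.14, and Mir763 in Hmga2, a chromatin architectural protein, 3.29. Mir204 lies in the ion channel gene Trpm3, and its interval, also in Trpm3 but 166 kb from the hairpin, had 4.84 from 34 fragments over 2.21. The folds of these intervals therefore describe sites within the host or neighbouring gene.

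The remaining microRNA intervals lay outside the protein-coding genes of the table. Mir29b-1, of a family that represses collagens and DNA methyltransferases, had 6.77 at 25.2 kb from 19 fragments over 0.351. Mir680-3 had 6.80 and 5.84 in neighbouring intervals at 51.6 and 52.2 kb, and the interval of Mir7671 off the hairpin had 4.0 at 1.41 kb. Mir6395 had 6.16, Mir21c 6.05, Mir6244 5.63, Mir6348 5.0, Mir6368 4.98, Mir3095 4.86, Mir6951 4.08 and Mir704 3.54. Mir6897 had 5.33 and 4.34, Mir3089 4.76 and 4.54, and Mir6390 4.57 and 4.18. Mir23a, the first hairpin of the cluster that also holds Mir27a and Mir24-2, had intervals of fold 3.78 and 3.76 at 4.89 and 9.84 kb upstream. The interval at 9.84 kb was the widest of the 225, at 1269 bp. Mir1983 had 5.06 and 4.14, on leucine and serine transfer RNA genes at 17.6 and 22.2 kb.

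None of the 6 small nucleolar RNA intervals overlapped the gene, which allows a share of up to 45.9% by the exact interval. That bound takes the 6 as independent, though they come from 4 genes. Snord118 makes U8, needed to process the large ribosomal RNAs, and had a fold of 5.77 at 0.284 kb (31 fragments over 1.48) and of 5.60 at 5.37 kb (17 over 0.480). Snord13 makes U13, a guide for acetylation of the small ribosomal RNA, and had 3.29 at 0.048 kb (36 over 4) and 4.36 at 6.75 kb (18 over 1). The pseudouridylation guides Snora31 and Snora34 had 4.0 at 15.7 kb and 4.54 at 6.62 kb. Platr30, one of a set of transcripts named for pluripotent cells, had 4.64 at 16.4 kb (41 fragments over 3), in an interval over the small nuclear RNA gene Gm24830.

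Small RNA genes of other kinds, here transfer, small nuclear, small nucleolar and small cytoplasmic RNA genes, lay under 6 of the 225 intervals (2.67%), against 2.46% of the other intervals and 2.49% of all. Besides Mir6546, Mir1983 and Platr30 these were C230035I16Rik, over a tyrosine transfer RNA gene (n-TYgta7) with a fold of 7.05 from 47 fragments over 2, and 6330415G19Rik, over an arginine one (n-TRccg2) with 4.31. The share is near that of the whole list. Such genes occur in many near-identical copies, and the authors' handling of multi-mapping reads is not stated in the sources used here, so these 6 positions are uncertain.

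Some promoter intervals of uncharacterised and non-coding transcripts lay beside the start of a coding gene on the opposite strand. Starts came from the RefSeq promoter table, which is not complete and was not used for chromosome 18. Of 52 such promoter intervals, 10 (19.2%, 9.63 to 32.5) had the start of another, coding gene within 1 kb, against 62 of 566 promoter intervals of other genes (11%, 8.50 to 13.8). In all 10 the coding gene was on the opposite strand, and in 7 the pair was divergent. Strands were not compared for the 62, so neither count can be called particular to these transcripts. The divergent pairs were 2510003B16Rik with Rad54l, a DNA repair gene, 2810454H06Rik with the receptor gene Gpr19, 2010109A12Rik with the cyclin gene Ccni, Gm15908 with Pxdc1, Gm38560 with the thioredoxin reductase gene Txnrd1, 4930583K01Rik with Smg1, a kinase of nonsense-mediated decay, and 5330417C22Rik with 1700013F07Rik. In the remaining pairs the transcripts cross: Mir7668 with Zfp27, E230016M11Rik with the stress gene Gadd45a, and Gm11696 with Gna13. The exact intervals of the shares overlap, and such an interval cannot be given to either partner.

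At these pairs the folds were moderate. They ran from 2.47 at 4930583K01Rik to 5.11 at 2510003B16Rik, where the starts are 150 bp apart and 14 fragments were found over 0.369. At Gm38560 and Txnrd1, with starts 198 bp apart, 70 fragments over 7 gave 3.88. At 2810454H06Rik and Gpr19, 36 bp apart, 34 fragments over 2.21 gave 4.84. Beyond 1 kb of the named start, 13 of 164 intervals (7.93%) had some RefSeq start within 1 kb. All 13 starts were of long non-coding RNAs and none was coding. Both counts are largely set in advance. An interval takes the name of its nearest start, so a nearer coding start would mostly have given it another name. Of the 32851 RefSeq windows, 21262 were of protein-coding genes and 11588 of long non-coding RNAs, which leaves hardly any other type.

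Base composition set the promoters of these transcripts between those of other genes with a promoter interval and those of the genome. RefSeq windows of 300 bases were found for 37 of the 53 promoter intervals, each taken at the RefSeq start nearest to the named one. For 32 of the 37 the starts were within 100 bp of each other, and 24 of the windows overlapped the interval. The windows of Gm12295, Gm36283 and 4933425B07Rik lay 77965, 29351 and 2830 bp from the named start, so they are not the promoters beside the intervals. The median CpG ratio was 0.663 in the 37 windows, 0.793 in 468 windows of other genes with an interval within 1 kb, 0.384 in all 32851 windows and 0.245 in all 11588 windows of long non-coding RNAs. A ratio over 0.6 was found in 51.4% of the 37, against 79.3%, 35.8% and 14%. Without the protein-coding ones, 32 windows had a median of 0.561, still above that of long non-coding RNAs at large. The 24 windows that overlapped the interval had a median of 0.702, with a ratio over 0.6 in 58.3% and a GGGCGG match in 62.5%.

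The motif shares followed the same order for GGGCGG, found in 54.1% of the 37 windows, 67.7% of other genes with a promoter interval, 35.7% of all windows and 16.3% of long non-coding RNA windows. TGACG was found in 35.1%, 34.0%, 20.8% and 15.7% of these sets. The shares for CCAAT were 45.9%, 40.6%, 37.4% and 36.0%. TATAAA was in 8.11%, 7.05%, 13.6% and 15.5%, CACGTG in 16.2%, 10.7%, 7.15% and 5.89%, TGANTCA in 8.11%, 7.48%, 7.81% and 9.31%, and GGTTCGA in 2.70%, 0.427%, 0.910% and 0.699%. With 37 windows, the shares under 10% rest on 1 to 3 windows each.

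A promoter interval and another interval were found for 15 transcripts, which allows the fold to be set side by side within a transcript. Where a transcript had several intervals on a side, the one of highest fold was taken. The promoter fold was lower in 9 and higher in 6, and the IgG expectation at the promoter was higher in 10, equal in 2 and lower in 3. At 1700031P21Rik the promoter had 3.32 (44 fragments over 4.98) and the interval at 2.27 kb had 6.45 (28 over 1.015). At 6330415G19Rik the promoter had 4.31 (30 over 2.21) and the interval at 3.57 kb had 6.98 (32 over 1.11). 2310043O21Rik went the other way, with 6.18 at the promoter (36 over 1.66) and 5.33 at 7.35 kb (35 over 2). The order of fold within a transcript thus varied. It also depends on the choice at the 2 of these transcripts with 3 intervals, C230035I16Rik and Mir3109: at C230035I16Rik the promoter, at 3.76, is below one of the others and above the remaining one, and at Mir3109 the interval off the promoter, at 4.96, lies between the promoter intervals of 5.14 and 4.6.

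Most transcripts had 1 interval (140 of 178), 31 had 2, 5 had 3 and 2 had 4. 4930431P22Rik had 4 on chromosome 14, all downstream of its start, with folds of 7.62 at 15.3 kb, 7.92 at 27.2 kb, 6.50 at 29.2 kb and 4.57 at 123 kb. Those at 27.2 and 29.2 kb overlapped the long non-coding RNA gene Gm30246. The 4 intervals of Gm10532, on chromosome 18, all lay inside Ctif, a translation factor gene, on both sides of the Gm10532 start, with folds from 3.78 to 6.99. These intervals describe the region around the named start, and none of these 8 lay on the transcript named.

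4833427F10Rik had 7.64, 5.21 and 5.86 at 22.6, 20.6 and 4.58 kb, the last on the gene itself. At C230035I16Rik the start had 3.76, beside the interval of 7.05 over a transfer RNA gene at 1.7 kb and one of 3.67 at 14.7 kb. 2610035D17Rik had intervals of 6.80 and 5.60 in its introns and one of 4.57 at 172 kb. Those of A630001O12Rik ran from 4.74 to 5.51, all over Gm31718, which shares the locus. Mir3109 had 5.14 on the hairpin, 4.6 at 0.634 kb and 4.96 at 10.5 kb, all inside Anxa2. The interval at 0.634 kb was the deepest of these, with 105 fragments over 9.

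**Figure D5:**
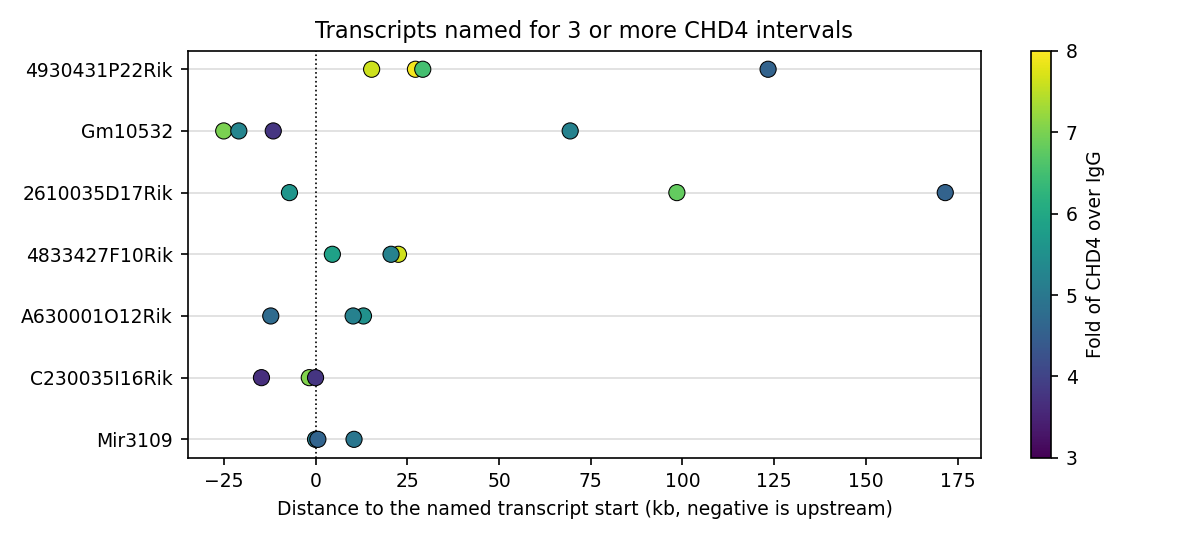
Position in kb from the named start (negative is upstream) of each CHD4 interval of the 7 transcripts with 3 or more, coloured by fold. C230035I16Rik and Mir3109 have an interval over the start, and the 4 intervals of 4930431P22Rik all lie between 15.3 and 123 kb downstream.

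The farthest intervals were those of B230303A05Rik, at 738 and 716 kb, followed by A830082K12Rik at 607 kb with a fold of 6.68, 1700129C05Rik at 385 kb with 6.23 and 4933402C06Rik at 349 kb with 4.54. The name marks the nearest start in the authors' transcript set. In the RefSeq starts a nearer one was found for A830082K12Rik, that of Gm32067 at 188034 bp, and for 1700129C05Rik, that of Gm33472 at 287789 bp. The widest after that of Mir23a were Gm35584 at 968 bp, the Mir3109 interval of 890 bp, 9630028H03Rik at 860 bp (inside Plcb1) and 4732491K20Rik at 827 bp, with folds of 6.98, 4.6, 7.36 and 7.57. Chromosome 14 had the highest share, 13 of its 58 intervals (22.4%), against 12.2% of all. Of those 13, 4 were named for 4930431P22Rik and 2 for Mir6390. On the X chromosome 1 of 19 intervals was named for these transcripts, Gm8817, with a fold of 6.72 at 62.7 kb. The only interval on the Y chromosome was not among them.

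Few of the annotated genes with such symbols were named at all. Of 25428 genes in the gene table whose symbols follow the patterns, 177 were named for an interval (0.696%), against 3.03% of all 49939 genes. These counts go by the symbols of the gene table, where 5330417C22Rik is now Elapor1, outside the patterns, and 3110039I08Rik is now Mir100hg, counted under Mir. The share was 4.22% for symbols ending in Rik (97 of 2299, including 2 that are not of the full clone form), 2.71% for Mir (32 of 1182) and 0.197% for Gm (43 of 21795). The share for Rik was thus above that of all genes, and the share for Gm far below it. By gene type, 139 of 12727 long non-coding RNAs (1.09%) and 30 of 1228 microRNAs (2.44%) were named, against 6.07% of 21883 protein-coding genes. None of the 9944 genes typed as pseudogene was named. Of 485 genes typed as transcribed pseudogene 11 were (2.27%), among them the 7 pseudogenes described above. Of the 25428 genes, 11945 were long non-coding RNAs, 1751 protein-coding and 1217 microRNAs, so many are of other types and need not be transcripts. The transcript set of the authors' annotation is not named in the sources used here, and the part of this in the low share of predicted genes was not tested.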

How the data were processed

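CUT&Tag was done with an antibody against CHD4 in 2 samples and with IgG in 2. Tools named in the submitters' processing notes are MACS2 2.1.2, Bowtie2 2.2.5 and Trim Galore 0.5.0, with build mm10. Step order, duplicate and multi-mapping reads, pooling of replicates and the annotation tool are not stated in the sources used here. Nothing says that the replicates came from separate animals beyond the word biological.

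The deposited table is 1 peak list. Per the file headers it holds the authors' fold, a ratio of CHD4 to IgG at a summit, and the log2 of that fold. The deposited −log10 p and −log10 q columns had lost their headers and were read from the caller's column order. The deposited score is 10 times −log10 q without its decimals. One peak was read as the header line in the deposited table and is not analysed here. The largest q of the list was 0.0492. Unused columns of per-sample values numbered 0.

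Rows with the same position were joined to intervals, which took the fold and q of their summit of highest fold. Fragments were recovered from the authors' fold and −log10 p. The model takes the fold as (scaled CHD4 fragments + 1) / (IgG expectation + 1) and p as a Poisson tail. Whole fragments resulted at a scale of 0.429, within 0.005, with 1 solution at 2008 of 2066 summits (97.2%) and more at 58, where the closest was taken. Among 150 sampled summits, no other scale did so for more than 78%. On this model CHD4 libraries held 2.33 times the fragments of IgG, and no total depth follows. The step was tested on simulated data.

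Gene types, positions and sequences came from RefSeq tables of GRCm38.p6, whose coordinates are those of mm10. All 178 symbols were matched by gene identifier, 2 of them under a newer symbol. Starts were available for 27025 genes. Python 3.11.15, numpy 2.4.6, pandas 2.3.3, scipy 1.17.1 and matplotlib 3.10.9 were used.

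Shares have exact 95% binomial intervals that cover counting error only. No test was made, since intervals are not replicates. The transcripts and gene lists were chosen with earlier results of these data known. Named in the text are the 10 intervals of highest fold, the 5 of highest −log10 q, the 5 of lowest fold, the 5 farthest, the 5 widest, the 5 promoters of highest fold and the 5 of highest fold on a small RNA gene. Also named are every microRNA, small nucleolar RNA and Platr transcript, every transcript with 3 or more intervals, protein-coding members with an interval over the start, and those on X and Y. Others, such as the neighbouring pairs, the pseudogenes and the transcripts with a promoter and another interval, were named after their values were seen. Alternatives were each summit as the unit, D230017M19Rik kept, intervals on small RNA genes left out, 1 interval per locus of 10 kb, a stricter q, intervals above the median fold, members by gene type, a promoter zone of 2 or 3 kb, the start inside the interval, the fold of the summit of highest q, and the fragment ratio without the added 1.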

Additional observations from a re-analysis of the deposited data

How the results depend on the processing

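Up to 9 summary values were recomputed under each alternative that bears on them, 66 values in all, of which 56 stayed within the exact interval of the value reported (counts within 1.5 times) and 10 moved. All 9 stayed with each summit as the unit, with D230017M19Rik kept, without intervals on small RNA genes and with 1 interval per locus of 10 kb. Some of these, counted in the 56, could not move. With each summit as the unit, the number of transcripts, the share of genes named and the CpG ratio are the same by construction. With D230017M19Rik kept, the share named and the CpG ratio still leave it out. The share within 2 or 3 kb and the median fold of the summits of highest q stayed too. With −log10 q of at least 2, the median fold was 5.28 and 0.570% of the genes with such symbols were named. Above the median fold of the whole list, 133 intervals and 113 transcripts were left. Of these intervals 17.3% lay within 1 kb, the median fold was 5.75 and 0.444% of the genes were named. The counts, the share named and the median fold move by construction under a choice by fold. Intervals within 1 kb had the lower median fold, 4.67 against 5.14 beyond, and the part of this in the lower promoter share was not tested. The share within 1 kb stayed below that of the other intervals, at 23.0% against 35.5% with the stricter q, 17.3% against 24.4% above the median fold, and 22.9% against 36.5% with 1 interval per locus of 10 kb. Choosing by gene type in place of the symbol gave 247 intervals, of which 207 were among the 225 and 74.5% were named for a long non-coding RNA. Counting only intervals that contain the start gave 12%. The ratio of scaled fragments without the added 1 had a median of 8.80, since adding 1 pulls folds over low IgG toward 1.

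No paired analysis was possible because the list holds no value per sample. For the same reason no replicate could be left out. Depth limits single intervals: 69 of the 225 rest on fewer than 20 CHD4 fragments, and at 22 the IgG expectation is the lowest of the list.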
